A study of Mus musculus with 3 samples.

Results

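The matrix metalloproteinases (MMPs), the ADAM and ADAMTS metalloproteinases and the tissue inhibitors of metalloproteinases (TIMPs) were described in the choroid plexus epithelium (CPE) of the mouse. The members were all probes with a gene name in the scanner files that starts with Mmp or Adam and a digit, or with Adamts. All probes named Timp1 to Timp4 were also members. The members were 131 of 41174 probes, for 77 of the 27845 gene names on the array. They comprised 28 MMP probes for 21 genes, 5 TIMP probes for 4 genes, 50 ADAM probes for 29 genes, 41 ADAMTS probes for 18 genes and 7 ADAMTS-like probes for 5 genes. The CPE is the epithelial layer that covers the choroid plexus in the brain ventricles and makes cerebrospinal fluid. Its cells were cut with a laser out of cryosections of the brains of 3 healthy, untreated, adult female C57BL/6 mice. The amplified RNA was labelled with Cy5, the red dye. On each of the 3 arrays the other channel held 1 common reference, C57BL/6 RNA of the eye's RPE/choroid (the retinal pigment epithelium, RPE, with the vascular layer behind it), labelled with Cy3, the green dye. The dyes were not swapped, each mouse was on a slide of its own, and the spread of the reference between animals was not measured.

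MMPs are secreted or membrane-bound zinc proteases that cut collagens and other matrix proteins. ADAMs are membrane proteases of which some release the outer part of other membrane proteins, and ADAMTS are secreted proteases that cut proteoglycans or procollagen. TIMPs bind the active site of these enzymes. Most members are made as inactive precursors and need another protease, such as furin, to remove their propeptide. In the choroid plexus these enzymes are known for their part in passage of cells and fluid between blood and cerebrospinal fluid, and in the eye TIMP3 is a component of Bruch's membrane, on which the RPE rests.

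The promoters of 3 genes are printed because these carried the largest ratio above 0, the largest ratio below 0 and the highest CPE rank among the members. Each is the 250 bases before the start of the gene, from the RefSeq promoter table on build GRCm38.p6, 5′ to 3′ on the strand of the gene. Capitals mark matches to 3 motifs, searched on both strands: the GC box GGGCGG, the AP-1 site TGANTCA and the TATA box TATAAA. The *Mmp15* promoter lies at chr8:95352046-95352295 on the plus strand, the *Mmp3* promoter at chr9:7445572-7445821 on the plus strand and the *Timp3* promoter at chr10:86300162-86300411 on the plus strand.
Mmp15: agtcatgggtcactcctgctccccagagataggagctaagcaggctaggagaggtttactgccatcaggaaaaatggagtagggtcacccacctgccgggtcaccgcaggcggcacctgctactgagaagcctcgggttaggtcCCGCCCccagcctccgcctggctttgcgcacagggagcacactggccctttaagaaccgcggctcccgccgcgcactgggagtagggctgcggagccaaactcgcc
Mmp3: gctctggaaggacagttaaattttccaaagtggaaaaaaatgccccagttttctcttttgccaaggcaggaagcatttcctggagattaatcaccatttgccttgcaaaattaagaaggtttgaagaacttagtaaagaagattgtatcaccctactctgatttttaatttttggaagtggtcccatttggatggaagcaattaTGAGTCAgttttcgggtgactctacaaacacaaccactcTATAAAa
Timp3: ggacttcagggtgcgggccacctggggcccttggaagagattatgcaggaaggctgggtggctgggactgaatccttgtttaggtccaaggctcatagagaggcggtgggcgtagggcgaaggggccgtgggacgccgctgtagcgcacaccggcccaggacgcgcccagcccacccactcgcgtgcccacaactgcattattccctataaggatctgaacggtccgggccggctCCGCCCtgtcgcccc

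The *Mmp15* promoter held a GC box 106 bases before the start and 14 CpG dinucleotides. The *Timp3* promoter held a GC box 15 bases before the start and 18 CpG. The *Mmp3* promoter held an AP-1 site 46 bases and a TATA box 7 bases before the start, and 1 CpG. The median over all promoters of the table was 6 CpG. Of the 77 member genes, 46 had an entry in the table, with 51 promoters in all. An AP-1 site stood in 10 of these 51 (19.6%) and in 6.75% of all 32851 promoters. The 10 belonged to *Adam19*, *Adam25*, *Adam29*, *Mmp10*, *Mmp12*, *Mmp13*, *Mmp1a*, *Mmp20*, *Mmp3* and *Mmp7*. A GC box stood in 24 of the 51 (47.1%) against 32.7% of all, and a TATA box in 11 (21.6%) against 12.4% of all. These are matches of letters in a fixed window, and several *Mmp* genes with a match are close relatives, so the promoters are not independent of each other.

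Most members were dim in CPE. A total of 32 member probes (24.4%) stood well above background in the CPE channel on all 3 arrays, against 44.9% of all probes. In the reference these were 60 member probes (45.8%) against 61.5% of all. The arrays differed. The CPE signal of mouse 1 exceeded background for 54 member probes (41.2%), that of mouse 2 for 33 (25.2%) and that of mouse 3 for 109 (83.2%), against 58.5%, 46.0% and 85.6% of all probes. For 57 member probes (43.5%) mouse 3 was the only mouse with a CPE signal above background, as it was for 29.2% of all probes. The number of mice with signal above background is therefore given beside the values of dim members. In this amplified material, fewer cells of a type and less RNA per cell cannot be told apart.

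Expression classes followed the study. Probes were ranked over the array by their log2 CPE intensity averaged over the mice, and the high class begins at the 90th percentile, the moderate class at the 50th and the low class at the 10th, with very low expression under it. A rank does not order different genes by their amount of RNA, since probes differ in how well they hybridise. Of the members, 6 probes were in the high class (4.58%, against 10% of all probes by construction), 39 in the moderate, 70 in the low and 16 in the very low class. The median percentile was 37.1. The 6 highly expressed genes were *Timp3*, *Timp2*, *Adam9*, *Mmp14*, *Adamts1* and *Mmp15*: 2 inhibitors, 2 membrane-type MMPs, 1 ADAM and 1 ADAMTS. Of these, 5 were above the 90th percentile in each mouse, and *Adamts1* was at the 87.1st percentile in mouse 2.

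**Figure D1:**
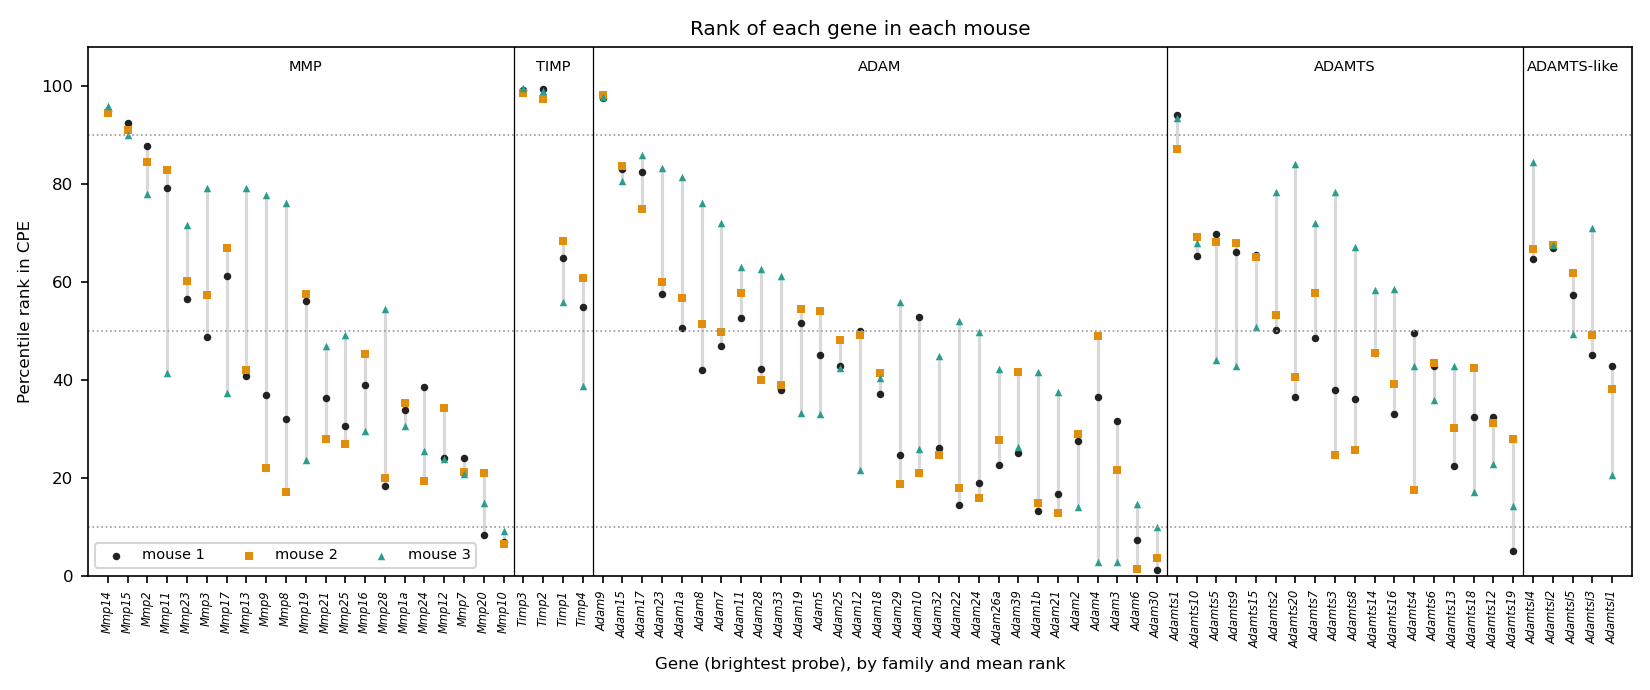
Percentile rank of the brightest probe of each of the 77 member genes in the CPE of mouse 1, mouse 2 and mouse 3, grouped by family and ordered by mean rank. Grey bars span the mice and dotted lines mark the 90th, 50th and 10th percentiles. *Timp3*, *Timp2*, *Adam9*, *Mmp14* and *Mmp15* lay above the 90th percentile in all mice, whereas many genes of the moderate class, such as *Mmp3* and *Adam1a*, ranked far higher in mouse 3 than in the other mice.

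The second comparison asked which members differed between CPE and the RPE/choroid reference. The log2 ratio of CPE over reference was tested with limma for probes of which the CPE or the reference signal exceeded background on every array, which held for 61 of the 131 member probes (46.6%, 47 genes) and 62.8% of all probes. The threshold was an adjusted p under 0.05 together with a difference of at least 2-fold. Of the 61, 5 were past it (8.20%), against 17.3% of all 25847 tested probes. *Mmp15* was higher in CPE, and *Mmp3*, *Timp3*, *Adam7* and *Adamts3* were lower. In the array as a whole 7.09% of tested probes were higher and 10.2% lower. Of the 61, 60 exceeded background on every array in the reference, 32 did in CPE and 31 in both. Of all 25847, these were 25317, 18481 and 17951. A probe tested through the reference alone is dim in CPE and can hardly come out higher there. *Adam7* and *Adamts3* were such probes, so the numbers in each direction are not read as a result. Without the limit on fold, 11 member probes had an adjusted p under 0.05, against 39.2% of all tested probes. The median ratio of the tested members was −0.08, and that of all tested probes −0.04. The median size of the ratio was 0.25 for members and 0.39 for all. With median centring in place of loess the same 5 probes were past the threshold, whereas 16 of the 61 ratios, all within 2-fold, turned sign, among them *Timp2*, *Adam9*, *Adamts1* and *Mmp14* at their brightest probes, from below to above 0.

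**Figure D2:**
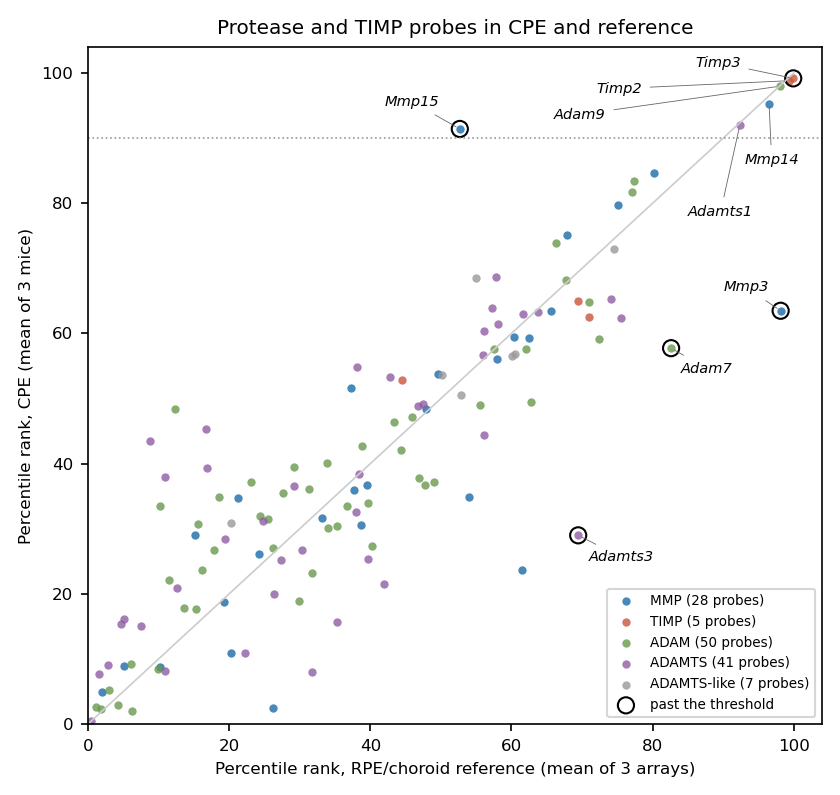
Percentile rank in CPE (y axis, mean of 3 mice) against that in the RPE/choroid reference (x axis, mean of 3 arrays) for the 131 member probes, coloured by family. Circles mark the 5 probes past the threshold, the grey line marks equal rank and the dotted line the 90th percentile. *Mmp15* stands far above the line of equal rank, at 91.4 against 52.7, and *Mmp3* far below it, at 63.5 against 98.1.

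The inhibitors were the best measured group, with both signals of all 5 TIMP probes over background on every array. *Timp3*, whose protein binds to the matrix and also inhibits ADAM17 and the aggrecan-cleaving ADAMTS, had the highest CPE rank of the members, at the 99.2nd, 98.6th and 99.5th percentile in mice 1, 2 and 3. Its probe lies at chr10:85778750-85778809 on build mm8, the build of the scanner files. In the reference it ranked higher still, at the 99.9th percentile on each array. Its log2 ratio was −1.95, −2.87 and −1.32, with a mean of −2.05 (SE 0.27, n = 3, limma adjusted p = 0.001), or 4.13-fold lower in CPE. With median centring in place of loess the mean was −1.11 (adjusted p = 0.023). *Timp3* was thus at once in the high class of the CPE and below the reference in every mouse.

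*Timp2*, which inhibits MMPs and also helps MMP14 to activate pro-MMP2, ranked at the 99.4th, 97.5th and 99.0th percentile in the mice. Its ratio was −0.14, −1.57 and −0.25, and its mean of −0.66 (SE 0.28) did not pass the test (adjusted p = 0.101). Mouse 2 stood apart from the other mice. *Timp1*, an inducible inhibitor, was moderately expressed, at the 65.0th and 62.5th percentile for its 2 probes. The ratios of these probes were −0.44 (SE 0.16, adjusted p = 0.059) and −0.58 (SE 0.17, adjusted p = 0.031), below 0 in every mouse and short of 2-fold. *Timp4* was at the 52.9th percentile, with a ratio of 0.28 (SE 0.17, adjusted p = 0.232) and values of 0.17, 0.59 and 0.07.

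Among the membrane-type MMPs, *Mmp15*, which codes for MT2-MMP, was the one member higher in CPE. Its single probe at chr8:98262932-98262991 (mm8) ranked at the 92.4th, 91.0th and 90.1st percentile in the mice, and at the 52.7th in the reference. The normalized log2 intensity was 10.92, 10.72 and 10.32 in CPE and 7.58, 7.69 and 8.02 in the reference, so the channels did not overlap. The ratio was 3.34, 3.02 and 2.30, with a mean of 2.89 (SE 0.22, adjusted p = 7.51e-05), a 7.41-fold difference. The log ratio of the scanner software was 3.70. *Mmp15* was the only member in the high class that was higher in CPE than in the reference by this test.

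*Mmp14*, which codes for MT1-MMP, the main activator of pro-MMP2, was in the high class at the 95.3rd percentile and nearly as high in the reference, at the 96.5th. The ratio of this probe was −0.33, −0.62 and −0.36 (mean −0.44, SE 0.16, adjusted p = 0.057). Its other probe, 1194 genomic bases 5′ of the first, ranked at the 79.8th percentile with ratios of 1.10, −0.55 and 0.60 (mean 0.39, adjusted p = 0.334). The probes thus differed in sign in mice 1 and 3, and neither passed the test. Of the remaining membrane-type MMPs, *Mmp17* was measured on all arrays at the 59.5th percentile with a ratio of −0.15, while *Mmp16*, *Mmp24* and *Mmp25* were in the low class with CPE signal above background in 1 mouse.

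Secreted MMPs were mostly moderate or dim. *Mmp3*, which codes for stromelysin-1, had the largest difference of all members. Its probe at chr9:7455751-7455810 (mm8) was at the 98.1st percentile in the reference, with 12.41, 12.50 and 12.64 on the normalized log2 scale. In CPE the levels were 6.92, 7.31 and 9.00, well above background on all arrays, and the ranks were 48.7, 57.2 and 79.1. The ratio was −5.49, −5.19 and −3.64, with a mean of −4.78 (SE 0.33, adjusted p = 5.22e-05), or 27.4-fold lower in CPE. Mouse 3 had the highest CPE level and was still below the reference by more than 3 log2 units.

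*Mmp2*, a gelatinase that cuts collagen IV, had the highest CPE rank of the secreted MMPs, at the 87.8th, 84.4th and 77.9th percentile. Its ratio was 0.70, 0.28 and −0.23 (mean 0.25, SE 0.20, adjusted p = 0.367). *Mmp11* followed at the 75.2nd percentile, with 79.3, 82.9 and 41.4 in the mice and a ratio of 0.24 (adjusted p = 0.356). *Mmp9*, the other gelatinase, was at or near background: its brightest probe was above it in 1 mouse and was not tested, and its other probe was above it in no mouse. For the latter, which was measured in the reference on all arrays, the reference was at least 1.35-fold higher with the processing used here (adjusted p = 0.032), and the adjusted p was 0.079 without background correction. In such a bound, a CPE level under the dimmest signal that still exceeded background on its array was replaced by that signal. The collagenase genes *Mmp1a*, *Mmp8* and *Mmp13* had no probe above background in CPE in more than 1 mouse. *Mmp12*, the macrophage elastase, had ratios of −1.45, −0.99 and −0.04 (mean −0.82, adjusted p = 0.039), with CPE above background in 1 mouse.

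**Figure D3:**
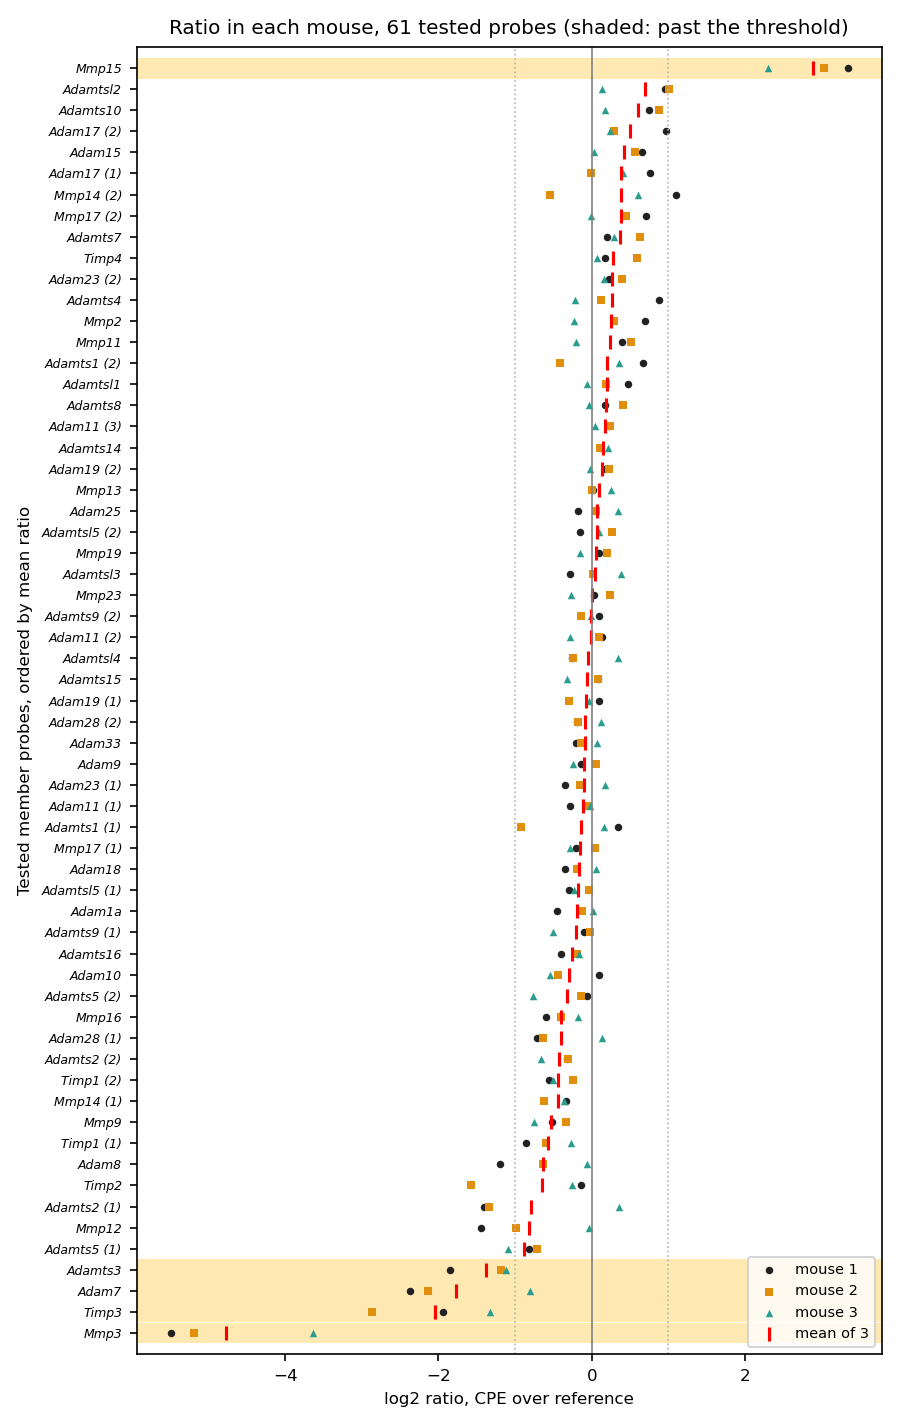
Log2 ratio of CPE over reference in each mouse (black circles mouse 1, orange squares mouse 2, green triangles mouse 3) and its mean (red bars) for the 61 tested member probes, ordered by the mean. Dotted lines mark a 2-fold difference and shading the 5 probes past the threshold; genes with several tested probes are numbered. Apart from *Mmp15* at the top and *Mmp3*, *Timp3*, *Adam7* and *Adamts3* at the bottom, the means lie between −0.88 and 0.70.

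The ADAM proteases of somatic tissues had 11 tested probes (8 genes). None was past the threshold in limma, against 17.3% of all tested probes, but so few probes cannot be told from that share. Of the 11, 2 had an unadjusted p under 0.05, and the ratios of the group ran from −0.63 for *Adam8* to 0.50 for *Adam17*. *Adam9*, a broadly expressed ADAM whose loss causes cone-rod degeneration in the eye, ranked at the 97.6th, 98.3rd and 97.9th percentile in the mice and the 98.1st in the reference. Its ratio was −0.14, 0.06 and −0.24 (mean −0.11, SE 0.15, adjusted p = 0.621). The sheddase gene *Adam17* ranked at the 81.8th and 73.9th percentile for its 2 probes, with ratios of 0.39 (adjusted p = 0.142) and 0.50 (adjusted p = 0.074). *Adam15* was at the 83.4th percentile with a ratio of 0.41 (adjusted p = 0.105). *Adam10*, the sheddase of Notch and amyloid precursor protein, had 1 probe at the 36.8th percentile, with CPE above background in 2 mice and ratios of 0.09, −0.44 and −0.54. These p-values do not show that the levels are equal.

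The testis and epididymis ADAMs, 25 probes for 17 genes, were close to background. A single probe of the 25, for *Adam1a*, was above background in CPE on all arrays, and 4 were in the reference. *Adam7*, known from the epididymis, was lower in CPE. Its probe at chr14:67451423-67451482 (mm8) was above background in mice 1 and 3, with levels of 7.03, 7.26 and 8.56 in CPE and 9.41, 9.39 and 9.37 in the reference. The ratio was −2.38, −2.14 and −0.81, with a mean of −1.77 (SE 0.29, adjusted p = 0.003), or 3.42-fold lower. The CPE signal of mouse 2 was not above background, so the size of the ratio is uncertain. The log ratio of the scanner software was −2.61. The reference was nearly constant, and the CPE of mouse 3 lay nearest to it.

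Genes of which the CPE level varied most between mice were *Adam1a*, *Adam23* and *Mmp3*, among brightest probes above background on all arrays. On the scale used for ranking, *Adam1a* was at 7.62, 7.63 and 9.95 (SD 1.34), and *Adam23*, a non-catalytic ADAM of neurons that binds LGI1, at 7.98, 7.78 and 10.10 (SD 1.28). Mouse 3 was the high one in each. The reference, which was 1 RNA, was also highest on the array of mouse 3 for both, at 8.99 for *Adam1a* and 9.02 for *Adam23*, with SDs of 0.40 and 0.57. For *Mmp3* the reference SD was 0.19 and the CPE SD 1.25. The ratios of *Adam1a* (−0.19, adjusted p = 0.406) and *Adam23* (0.26, adjusted p = 0.211) did not pass the test.

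Among the ADAMTS genes, *Adamts1*, which cuts proteoglycans, ranked at the 94.0th, 87.1st and 93.5th percentile in CPE and at the 92.4th in the reference. Its ratio was 0.34, −0.92 and 0.16 (mean −0.14, SE 0.25, adjusted p = 0.695). Its second probe was at the 63.9th percentile with a ratio of 0.20 (adjusted p = 0.502), and mouse 2 had the lowest ratio at both. *Adamts5*, the main aggrecanase of mouse cartilage, was below the reference in every mouse at its brightest probe, with −0.82, −0.72 and −1.10 (mean −0.88, SE 0.16, adjusted p = 0.004), which is short of 2-fold. With median centring in place of loess the mean of this probe was −0.52 (limma adjusted p = 0.235). The other *Adamts5* probe was above background in CPE in no mouse, and the difference from the reference there did not pass the test (adjusted p = 0.211). *Adamts9*, *Adamts15*, *Adamts10* and *Adamts7* were measured in all mice at the 60.3rd to 68.7th percentile. Of these, *Adamts10* had a ratio of 0.60 (0.75, 0.87 and 0.17, adjusted p = 0.036) and the others had none with an adjusted p under 0.05.

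The procollagen N-proteinases *Adamts2*, *Adamts3* and *Adamts14* had no probe above background in CPE on all arrays. The *Adamts3* probe at chr5:90750328-90750387 (mm8) was past the threshold, with ratios of −1.84, −1.19 and −1.12 (mean −1.38, SE 0.19, adjusted p = 0.001). Its CPE signal, at the 29.0th percentile in the mean of the mice, was above background in mouse 3 only, so the size of the ratio is uncertain. The log ratio of the scanner software was −2.78. The other probes of *Adamts3* were not tested and had ratios of 0.17 and −0.06, so the call rests on 1 of 3 probes. *Adamts2* had ratios of −1.41, −1.34 and 0.36 at its brightest probe (mean −0.80, SE 0.33, adjusted p = 0.096), with CPE above background in 2 mice and mouse 3 on the other side of 0. Without mouse 3 this probe would be past the threshold, at −1.37 (adjusted p = 0.002). At another *Adamts2* probe, above background in CPE in no mouse, the difference did not pass the test (adjusted p = 0.065). The remaining *Adamts2* probes were not tested and had ratios of 0.13 and −0.002.

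The ADAMTS-like genes, which lack the protease domain and act as matrix proteins, had no probe past the threshold in limma among 6 tested, and 1 with an unadjusted p under 0.05. The share past the threshold was 17.3% over all tested probes, from which 6 probes are too few to be told apart. *Adamtsl2* came nearest, with ratios of 0.95, 1.01 and 0.13 (mean 0.70, adjusted p = 0.032). *Adamtsl4* had the highest CPE rank of the group, at the 72.9th percentile, with 64.8, 66.7 and 84.5 in the mice.

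All 5 member probes past the threshold had the ratio nearest to 0 in mouse 3. This was so for 60.6% of all 4462 probes past it, so the pattern was not particular to the proteases. Mouse 2 stood apart where probes along a transcript were compared. For 4 members both outer probes, at least 100 bases apart, were measured in both channels on all arrays. For 3 of these 4, *Adam17*, *Mmp14* and *Timp1*, the 5′ probe minus the 3′ probe was lower in mouse 2 than in the mean of the other mice, by 0.27, 1.12 and 0.32 on the log2 scale. For *Adamts1* it was 0.25 higher. Over all genes with such probes, 2614 of 3510 (74.5%) were lower in mouse 2, with a median of −0.33. The part of this in the low ratios of *Timp2* and *Adamts1* in mouse 2 was not tested.

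**Figure D4:**
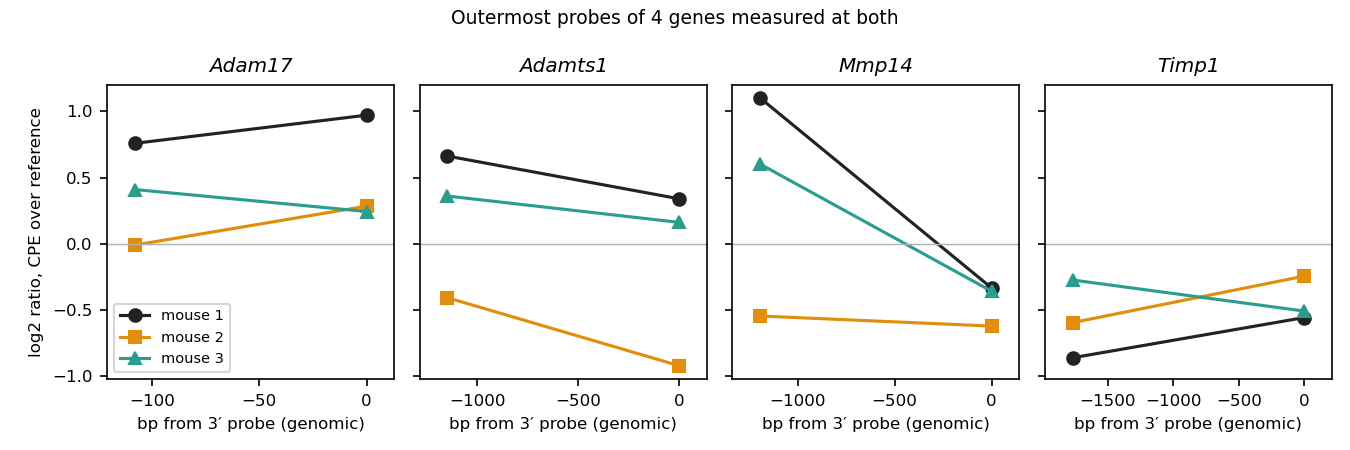
Log2 ratio of CPE over reference at the 5′ and the 3′ probe of *Adam17*, *Adamts1*, *Mmp14* and *Timp1* in each mouse, against the genomic distance from the 3′ probe in base pairs (each panel has its own distance scale). At *Mmp14* the ratio rises toward the 5′ probe, to 1.10 in mouse 1 and 0.60 in mouse 3, but stays at −0.55 in mouse 2.

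Partner genes were taken as 3 lists: regulators of the proteases, other metalloproteinases and proteins known to be cut by members. Of 23 regulators, 21 were tested, of which 4 were higher in CPE, 4 lower and 13 not past the threshold, with a median ratio of 0.18. Of all tested probes of the array, 7.09% were higher and 10.2% lower. Those shares are not limited to brightest probes, as the lists are. Higher were *Tspan33* (3.74, SE 0.17), *Bsg* (2.64, SE 0.29), *Furin* (1.79, SE 0.15) and *Spock2* (1.52, SE 0.19). Tspan33 is one of the tetraspanins that bring ADAM10 to the cell surface, basigin induces MMPs in neighbouring cells, furin cuts the propeptide of membrane-type MMPs and many ADAMs, and Spock2 is a testican proteoglycan. *Bsg* was saturated in CPE on 1 array. *Furin* ranked at the 97.9th percentile in CPE, and its ratio was nearly the same in each mouse, at 1.89, 1.65 and 1.82.

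Lower in CPE were *Tspan10* (−4.75, SE 0.20), *Spock1* (−1.78, SE 0.16), *Pcsk6* (−1.30, SE 0.24) and *Spock3*. The CPE signal of *Spock3* was above background in no mouse, and the reference was at least 2.1-fold higher (adjusted p = 0.004). That of *Spock1* was above it in 2 mice. Tspan10 is another partner of ADAM10, so 2 tetraspanins of the same group stood at opposite ends of the list. The remaining 4, *Tspan5*, *Tspan14*, *Tspan15* and *Tspan17*, had ratios of −0.39, −0.71, 0.75 and −0.17. *Reck*, a membrane-anchored MMP inhibitor, was at the 90.8th percentile, and its ratio of −0.07 (SE 0.15) did not pass the test (adjusted p = 0.734). *A2m*, *Lrp1* and *Plat* were also in the high class, and none was past the threshold.

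Of the 10 other metalloproteinases, 7 were tested, with a median ratio of 0.08. None was past the threshold in limma, against 17.3% of all tested probes, but 7 genes are too few to be told from that share. Of the 7, 3 had an unadjusted p under 0.05, and 1, *Ece1*, had an adjusted p of 0.047 (ratio −0.46). Of 22 cleaved proteins on the array, 19 were tested, of which 2 were higher in CPE and 5 lower, with a median of −0.02. *Kl*, the anti-ageing protein klotho that ADAM10 and ADAM17 release from the membrane, was at the 99.6th percentile with ratios of 6.11, 5.20 and 4.95 (mean 5.42, SE 0.23). It is also a marker of CPE. *Ncan*, named *Cspg3* in the files, a proteoglycan of brain matrix, had ratios of 1.98, 1.87 and 0.10 (mean 1.32, SE 0.35, adjusted p = 0.020). Lower were *Reln* (−3.93, SE 0.16), *Thbs1* (−2.60, SE 0.18), *Cd44* (−1.87, SE 0.17), *Vwf* (−1.53, SE 0.15) and *Fn1* (−1.42, SE 0.21). *App*, the amyloid precursor protein, was at the 98.3rd percentile with ratios of −0.37, −2.76 and −0.42 (adjusted p = 0.064), again with mouse 2 apart.

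**Figure D5:**
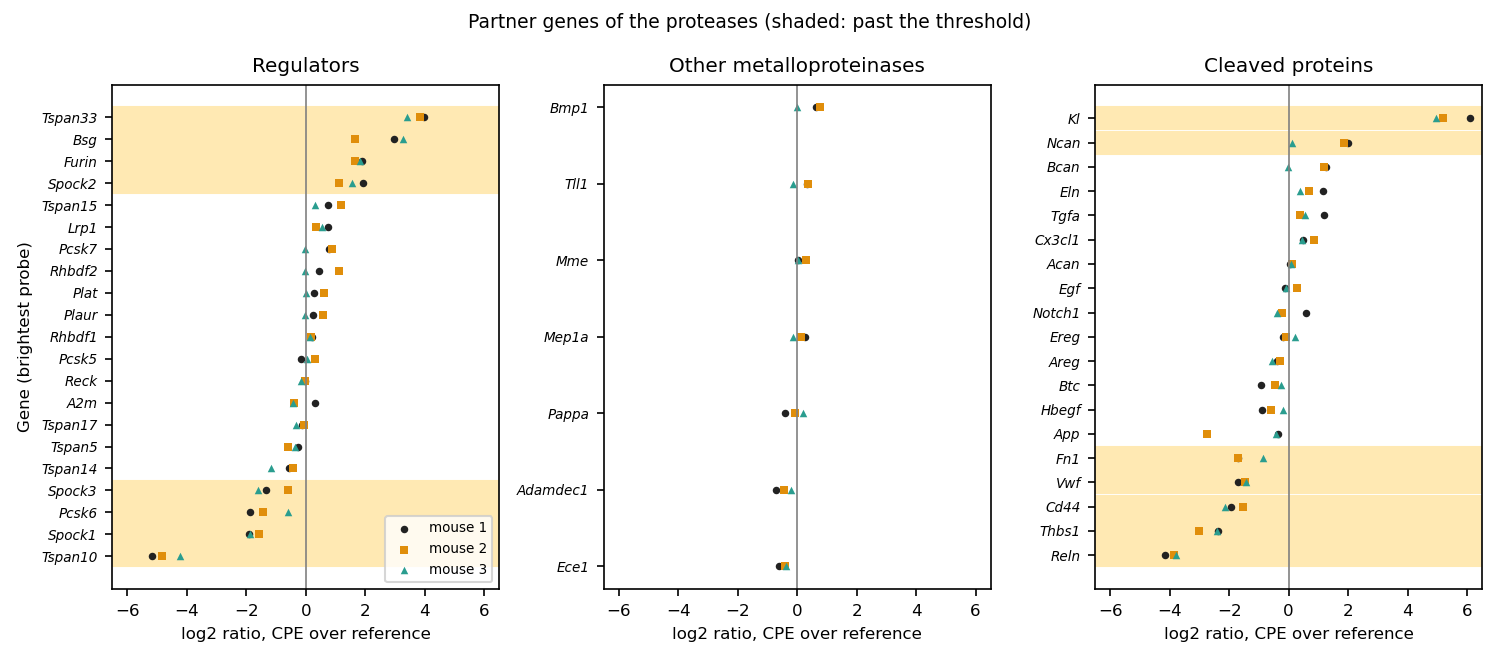
Log2 ratio of CPE over reference in each mouse for the tested partner genes, by list, each at its brightest probe and ordered by the mean. Shading marks genes past the threshold: 8 of 21 regulators, none of 7 other metalloproteinases and 7 of 19 cleaved proteins. Of all tested probes of the array, 17.3% were past it.

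Markers of the cells that CPE and reference could hold were read beside these results. Of 8 CPE markers 7 were higher in CPE, among them *Ttr* and *Htr2c*, and none was lower. *Ttr* was saturated in CPE on 3 arrays and *Clic6* on 1. Of 9 markers of RPE and melanocytes 8 were lower in CPE, but 8 of the 9 were above background in CPE on all arrays and 3, *Rdh5*, *Pmel* and *Dct*, ranked in the high class. The remaining marker, *Tyr*, was above background in CPE on no array, and its reference rank was the 74.3rd percentile. *Dct* was saturated in the reference on 3 arrays. Stroma markers were lower for 5 of 6 genes, with a median ratio of −1.80, but 5 of the 6 still ranked in the high class of CPE. The log2 of their summed normalized intensities was 14.19 to 14.37 in CPE and 16.83 to 17.04 in the reference. Such a sum is weighted toward the brightest gene, here *Dcn*, which was saturated in the reference on 2 arrays. Macrophage markers were lower for 4 of 6, with a median ratio of −1.13. Their sums, weighted toward *Lyz2*, were 13.15 to 13.24 against 15.88 to 16.01. Photoreceptor markers were lower for 6 of 6. The high class of CPE held 2 of the macrophage and 1 of the photoreceptor markers. In the reference the photoreceptor markers ranked from the 98.6th (*Pde6b*) to the 99.9th percentile (*Gnat1*). RNA of photoreceptor genes was thus present in the RPE/choroid reference. Endothelial markers were higher for 1 of 6, with a median ratio of 0.90 and ratios from −0.19 to 1.21. Their sums, weighted toward the brightest genes, were 13.29 to 13.45 against 13.03 to 13.26. Neuron markers were lower for 3 of 5 and higher for none, and astrocyte markers were higher for 1 and lower for 1 of 4. Fibroblasts are a known source of *Mmp3*, *Timp3*, *Adamts2* and *Adamts5*, and macrophages of *Mmp12*. The RPE and melanocyte markers had a median ratio of −3.80. The part of fibroblasts, macrophages, RPE or other cells of the reference in the lower ratios was not tested.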

How the data were processed

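CPE of 3 mice (1 group) was hybridised against a common RPE/choroid reference. The authors read the arrays with Feature Extraction (Agilent, 9.5.3.1). The deposited scanner tables hold red and green intensity per spot, local background and flags. They also hold a log10 ratio of red over green that the authors' software had processed. A deposited table of log2 values, which the authors had normalized with Aquantile in R 2.14.0 with limma, held levels of the CPE channel (rank correlation 0.9985, 0.9976 and 0.9989 with it) and served as an alternative. Its column medians were 6.97, 6.92 and 6.89, and scale and direction followed from this match, with no centring of genes seen. The background correction behind it is not given in the sources used here.

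Control spots and spots flagged as outliers were removed, and the remaining spots of a probe averaged. In R 4.3.3 with limma 3.58.1, ratios were formed after normexp (offset 50) and loess, and the moderated test set their mean against 0, with Benjamini-Hochberg adjustment over 25847 probes. Ranks used red intensity without background correction, after Aquantile. Levels called normalized came after normexp, loess and Aquantile. The number of arrays limits the precision. Genes were described by their brightest probe. Named were all TIMP genes, genes of the high class, genes past the threshold, genes with a bound, the 3 with the largest CPE spread and genes with probes that disagree. Other genes were added after their values were seen. Probe accessions matched the reference table for 98 member probes. The file name *Adam6* is now *Adam6a*, and 1 probe whose current symbol is *Adam6b* is not so named in the files and was left out. *Kcnj13* and *Vcan* were not found among the gene names. Protein sequences were not used here, and 1 gene of the lists is not reported here. Members and lists were chosen with earlier results of these data known.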

Additional observations from a re-analysis of the deposited data

How the results depend on the processing

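The 5 member probes past the threshold stayed past it, with none added, without background correction, with median centring in place of loess, and with no filter on dim probes. With the log ratio of the scanner software there were 9, with both *Adamts5* probes, *Mmp16* and *Mmp9* added, all lower in CPE. With only probes above background in both channels there were 3, *Mmp15*, *Mmp3* and *Timp3*, since 31 member probes were tested. In a test against a 2-fold change (limma treat) there were 2, *Mmp15* and *Mmp3*, with an adjusted p of 0.052 for *Timp3*, 0.202 for *Adam7* and 0.428 for *Adamts3*. Leaving out each mouse in turn gave 5 to 7, the 7 without mouse 3, when *Adamts2* (−1.37) and *Mmp12* (−1.22) were added. The high class held the same 6 genes under each other setting, and 3 (*Adam9*, *Timp2* and *Timp3*) when only probes above background in CPE were ranked. Median centring moved the median of all tested ratios from −0.04 to 0.09. It turned the sign of 16 of the 61 tested members, none past the threshold in either fit. Among the probes of the named genes these were *Adam9* (0.71), *Adamts1* (0.50), *Mmp14* (0.29) and *Timp2* (0.21), and the cause was not tested. It also took *Timp3* from −2.05 to −1.11. Leaving out 1 mouse turned the sign of 14 of the 61, none past the threshold. Of the named genes these were 3 probes, which ran from −0.25 to 0.014 (*Adam23*), from −0.38 to 0.25 (*Adamts1*, brightest probe) and from −0.024 to 0.51 (its other probe). Of the alternative values of the 22 tested probes of named genes, 177 ratios kept direction and side of the threshold, 7 turned sign, 4 came past the threshold and 3 dropped below it. No paired analysis was possible because there is no other group that shares the mouse numbers, and each ratio already sets CPE against the reference on the same array. Signal over background limits most members.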
